A study of Mus musculus with 12 samples.

Results

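The 38 genes described here drive or restrain the cell cycle: cyclins, cyclin-dependent kinases (CDKs) and their inhibitors, replication factors, mitotic factors, the proliferation marker Mki67, the topoisomerase Top2a, and Myc. They were taken by gene name from 24503 genes measured by RNA sequencing of isolated mouse islets, the pancreatic endocrine clusters that hold the insulin-producing β cells, and each of the 38 names matched 1 gene identifier in all 8 tables. The study asked how electrical activity alters islet transcripts, with 12 libraries in 6 groups of 2 mice each. All mice had the C57BL/6 background. Wild-type islets were held at 11 mM glucose for 4 h with diazoxide, a drug that opens KATP channels and so hyperpolarizes the β cell (11G+D), at 11 mM glucose for 4 h with FK506, a calcineurin inhibitor (11G+FK), at 11 mM glucose for 4 h without a drug (11G), or at low glucose, labelled untreated (2G). For 2G the labels give no time, so comparisons with 2G can also hold an effect of incubation. Islets with channelrhodopsin-2, a light-gated cation channel, in β cells only were stimulated with light over 40 min (ChR2(+)LIGHT) or not stimulated (ChR2(-)LIGHT). The light was intermittent, on for 1.5 min and off for 5 min. The labels do not name the promoter that restricts the channel to β cells, nor the animals' age.

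A dividing cell passes G1, DNA synthesis, G2 and mitosis as different cyclins activate CDKs in turn. D cyclins with Cdk4 or Cdk6 start G1 progression by phosphorylating the retinoblastoma protein, cyclins E and A with Cdk2 serve S phase, and cyclin B with Cdk1 serves mitosis. Inhibitors of the Cip/Kip family (Cdkn1a, Cdkn1b, Cdkn1c) and the INK4 family (Cdkn2a, Cdkn2b, Cdkn2c) hold these kinases back. Adult β cells divide rarely, and in the mouse Ccnd2 and Cdk4 are known to be needed for β-cell expansion.

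Depth was 15196061 to 22892255 counts per library, and the 38 genes together took 0.104% to 0.155% of them. The islet identity of the libraries was checked with 10 β-cell markers, which took 7.41% to 11.9% of the counts with no marker at 0. Acinar markers took 0.0114% to 0.126% and ductal markers 0.246% to 0.568%. Both were highest in the 2G library of mouse 2, and 11 of 15 acinar and 3 of 12 ductal markers tested fell at 11G against 2G. In whole islets, fewer cells of a type and less RNA per cell cannot be told apart. Log2 changes are written ± their standard error in the edgeR model. Adjusted p-values come from the quasi-likelihood test of edgeR, corrected by the Benjamini-Hochberg method over every gene in the model, with a threshold of 0.05. Nothing in the labels says whether a group's 2 libraries came from separate preparations beyond the mouse number. The deposited column names differ between the 2 mouse numbers, and the ChR2 data of each number carry a different date. What the dates stand for is not given, so a difference between mouse numbers can also hold a difference between data sets. The model holds the mouse number as a block, so p-values measure the spread of libraries left after it, from 2 mice per group.

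Measured per gene length, as FPKM (counts scaled to gene length and library size), 24 of the 38 genes averaged at least 1 over the 12 libraries, against 52.6% of all genes, and 9 averaged at least 10. Cdkn1a, which encodes the inhibitor p21, had the highest level at 118 ± 39.0 FPKM (SD, n = 12 libraries, as for the next values). Cdk4 followed at 71.3 ± 11.1, the D cyclin Ccnd2 at 57.6 ± 15.1 and the transcription factor Myc at 46.4 ± 31.2 FPKM. The spreads of Cdk4, Ccnd2 and Myc overlapped. Next came Pcna, the sliding clamp of DNA polymerases, at 39.2 ± 5.24 FPKM, and then Cdkn1b (p27) at 20.7 ± 5.24, Cdkn2b (p15) at 19.2 ± 3.23 and Ccnd1 at 18.0 ± 6.18 FPKM, which also overlapped. Ccnd2 made up 56.4% to 76.5% of the summed D cyclin FPKM, and Cdkn1a 61.1% to 79.2% of the summed FPKM of the 6 CDK inhibitors.

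The other 14 genes averaged under 1 FPKM, and all of them belong to S phase, mitosis or the proliferation markers. Mki67 averaged 0.642 ± 0.208 FPKM and Top2a, which untangles replicated DNA, 0.567 ± 0.243 FPKM. Cdk1, the mitotic kinase, averaged 0.263 ± 0.141 FPKM, from 3 to 27 counts per library. The spindle checkpoint kinase Bub1 was the lowest at 0.0528 ± 0.054 FPKM, had a count of 0 in 2 libraries and was not tested. Aurkb, the kinase of the chromosomal passenger complex, had a count of 0 in 1 library. Birc5 (survivin, of the same complex) and Aurkb passed the filter in the wild-type libraries but were not tested in the light comparison.

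**Figure D1:**
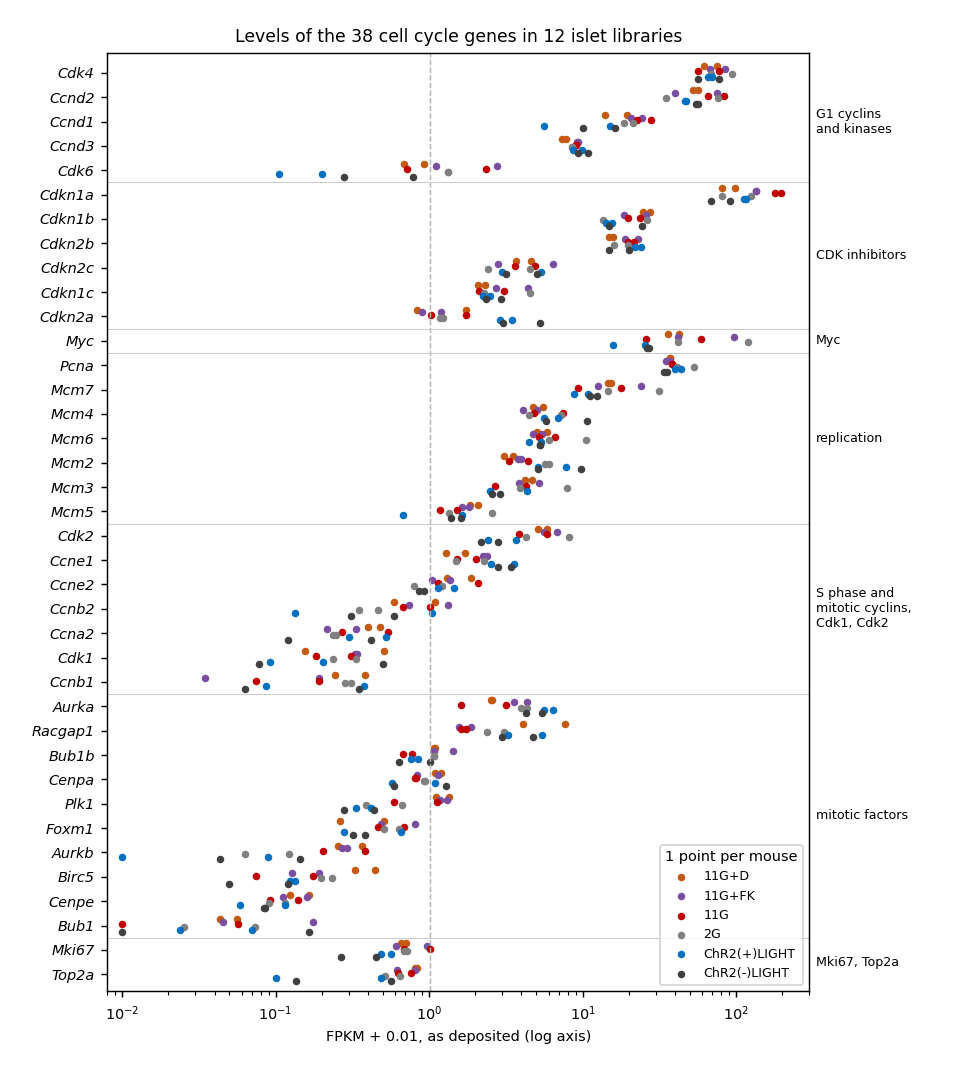
FPKM + 0.01 of each of the 38 genes (rows, by role) on a log axis, 1 point per library, coloured by group, with the dashed line at 1 FPKM. Cdkn1a, Cdk4 and Ccnd2 lie far right of the dashed line in every library, and Cdk1, Ccnb1, Cenpe and Bub1 lie left of it in every library.

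Of the 6 CDK inhibitors among the 38 genes, Cdkn1a was the only one to pass the threshold in the 7 comparisons with all libraries, higher at 11G than at 2G and lower with diazoxide. In CPM (TMM-scaled counts relative to library size, used below to compare libraries for 1 gene), Cdkn1a stood at 404 in mouse 1 and 333 in mouse 2 at 11G, against 153 and 239 at 2G. Both 11G libraries were above both 2G libraries. The 11G+D libraries had 153 and 193 CPM, both below the 11G libraries and overlapping the 2G libraries. With FK506 the level was 258 and 245 CPM, between the 11G and the 2G libraries of each mouse.

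Cdkn1a rose at 11G against 2G by 0.93 ± 0.21 on the log2 scale, or 1.91-fold (adjusted p = 0.0384), with 1.39 in mouse 1 and 0.48 in mouse 2. It fell at 11G+D against 11G by 1.10 ± 0.21 on the log2 scale, or 2.15-fold lower (adjusted p = 0.0234), by 1.40 and 0.79 in mice 1 and 2. These comparisons use the same 11G libraries. The 11G+FK libraries were 0.55 ± 0.21 lower than 11G in log2 terms, a log2 change of -0.55 that did not pass (adjusted p = 0.392). Against 2G, neither drug group passed, with log2 changes of -0.17 ± 0.21 for 11G+D and 0.38 ± 0.21 for 11G+FK.

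Each call was lost in some fits with 1 library left out. Such a fit leaves 1 library in a group, so a lost call does not show that the library left out drove the change. The 11G against 2G call was lost without 2G mouse 1 (0.61, adjusted p = 0.109), 11G mouse 1 (0.64, adjusted p = 0.438) or 11G mouse 2 (1.21, adjusted p = 0.0748), and the 11G+D against 11G call without 11G mouse 1 (-0.81, adjusted p = 0.353) or 11G+D mouse 1 (-0.98, adjusted p = 0.117). Without the mouse number as a block both calls were lost as well (0.91, adjusted p = 0.172, and -1.09, adjusted p = 0.119).

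The other 5 CDK inhibitors did not pass in any comparison with all libraries in the fit. Cdkn1b had 124 and 116 CPM at 11G+D, 118 and 81.5 at 11G+FK, 116 and 87.7 at 11G, and 118 and 61.4 at 2G, so that the groups overlapped. At 11G+D against 2G the log2 change of Cdkn1b was 0.49 ± 0.19 with all libraries (adjusted p = 0.165). It was 0.80 without 2G mouse 1 and 0.75 without 11G+D mouse 1, each of which leaves 1 library in a group. Cdkn2b had 20.5 and 22.5 CPM at 11G+D, against 29.7 and 29.2 at 11G, without overlap. Its log2 change was -0.46 ± 0.16 (adjusted p = 0.165), and 11G+FK with 26.1 and 30.9 CPM and 2G with 22.1 and 27.4 CPM overlapped each other. Cdkn2c (p18) had 11.3 and 9.33 CPM at 11G+D, 15.8 and 6.69 at 11G+FK, 13 and 8.72 at 11G, and 11.1 and 5.96 at 2G, again overlapping. Cdkn1c (p57), an imprinted gene, had 3.99 and 4.55 CPM at 11G+D, 5.22 and 8.16 at 11G+FK, 4.41 and 5.80 at 11G, and 4.31 and 8.74 at 2G. For Cdkn2a the level was 0.734 and 1.59 CPM at 11G+D, 1.07 and 0.763 at 11G+FK, 0.981 and 1.51 at 11G, and 1.08 and 1.04 at 2G. Counts per gene cannot split the 2 proteins that Cdkn2a encodes, p16Ink4a and p19Arf.

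Summed over the 6 inhibitors, the libraries had 314 and 347 CPM at 11G+D, 424 and 373 at 11G+FK, 568 and 466 at 11G, and 311 and 344 at 2G. Cdkn1a was the largest term in every library, and both 11G sums were above all other wild-type sums.

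**Figure D2:**
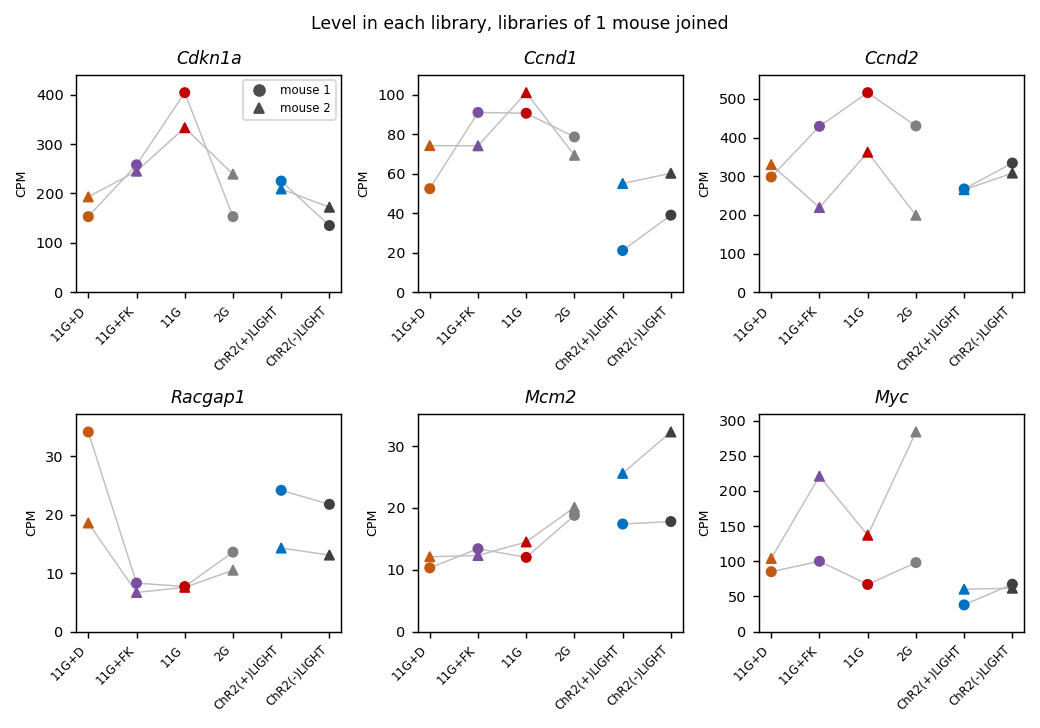
CPM (linear axis from 0) of Cdkn1a, Ccnd1, Ccnd2, Racgap1, Mcm2 and Myc in each library, with groups along the horizontal axis and libraries of the same mouse number joined (circles mouse 1, triangles mouse 2). Among the wild-type groups, Cdkn1a peaks at 11G with 404 and 333 CPM, Racgap1 at 11G+D with 34.2 and 18.6 CPM, and Mcm2 at 2G with 18.8 and 20.1 CPM.

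With edgeR and with DESeq2, 0 of the 5 G1 genes, the 3 D cyclins with Cdk4 and Cdk6, passed the threshold in the 7 comparisons. With diazoxide against 11G 1 of them, Ccnd1, had an unadjusted p under 0.05, beside 18.7% of all genes. Ccnd1 had 52.4 and 74.2 CPM at 11G+D, 91.0 and 74.1 at 11G+FK, 90.6 and 101 at 11G, and 78.6 and 69.3 at 2G. Both 11G+D libraries lay below both 11G libraries, a log2 change of -0.60 ± 0.19 (adjusted p = 0.121, and 0.0408 with no filter on low counts). Ccnd2 had 298 and 330 CPM at 11G+D, 429 and 219 at 11G+FK, 516 and 362 at 11G, and 430 and 199 at 2G. The mice differed by more than the conditions at 2G and 11G+FK, where mouse 2 was low. The 11G+D against 11G change of Ccnd2 was -0.42 ± 0.26 on the log2 scale (adjusted p = 0.447). Without 11G+D mouse 2 the changes were -0.93 for Ccnd1 and -0.98 for Ccnd2, values that rest on 1 library of 11G+D, that of mouse 1.

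Ccnd3 was the steadiest of the 3, with 28.1 and 30.9 CPM at 11G+D, 36.1 and 34.3 at 11G+FK, 37.8 and 34.1 at 11G, and 32.2 and 32.6 at 2G. Cdk4 had 126 and 157 CPM at 11G+D, 139 and 167 at 11G+FK, 126 and 156 at 11G, and 140 and 192 at 2G, and its 11G+D against 11G change was 0.01 ± 0.14 on the log2 scale. In every wild-type group mouse 2 had more Cdk4 than mouse 1. Cdk6, the other kinase of the D cyclins, was far lower per length than Cdk4, at 1.04 ± 0.817 FPKM (SD, n = 12 libraries). Its levels were 3.41 and 2.60 CPM at 11G+D, 4.10 and 9.92 at 11G+FK, 2.84 and 8.46 at 11G, and 4.87 and 4.92 at 2G. Ccnd1, Ccnd2, Ccnd3 and Cdk4 each overlap another gene on the opposite strand. The sources used here do not say whether counting used strand, so their values are uncertain by the reads of those neighbours. The same limit holds for 2 genes with lower levels, both with the neighbour on the opposite strand. Ccna2 overlaps Exosc9 over 864 bases and Ccne2 overlaps Ints8 over 5622 bases.

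Across all 38 genes, few passed in any comparison. At 11G against 2G 1 of 37 genes tested passed (Cdkn1a), beside 4.84% of all 16087 genes. Diazoxide gave 2 calls against 11G (Cdkn1a and Racgap1), beside 3.79% of all genes. At 11G+D against 2G, which differ in glucose as well as drug, 2 genes passed (Racgap1 and Mcm2), beside 5.22%. At 11G+FK against 11G+D 1 gene passed (Racgap1), beside 1.17%. For 11G+FK, edgeR called 0 of 37 genes against 11G, where 0.23% of all genes passed, and 0 against 2G, where 2.06% passed. Against 11G, 5 of the 37 had an unadjusted p under 0.05, beside 10.8% of all genes. Against 2G, 6 of the 37 had such a p, beside 19.7% of all genes. In these 2 comparisons DESeq2 also called 0, of the 28 and 34 to which it gave an adjusted p. The median log2 change of the genes tested lay between -0.02 and 0.12 in these 6 comparisons, and the median of all genes between -0.02 and 0.01. The shares of the 37 genes that passed, up to 5.41%, were near the shares of all genes.

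**Figure D3:**
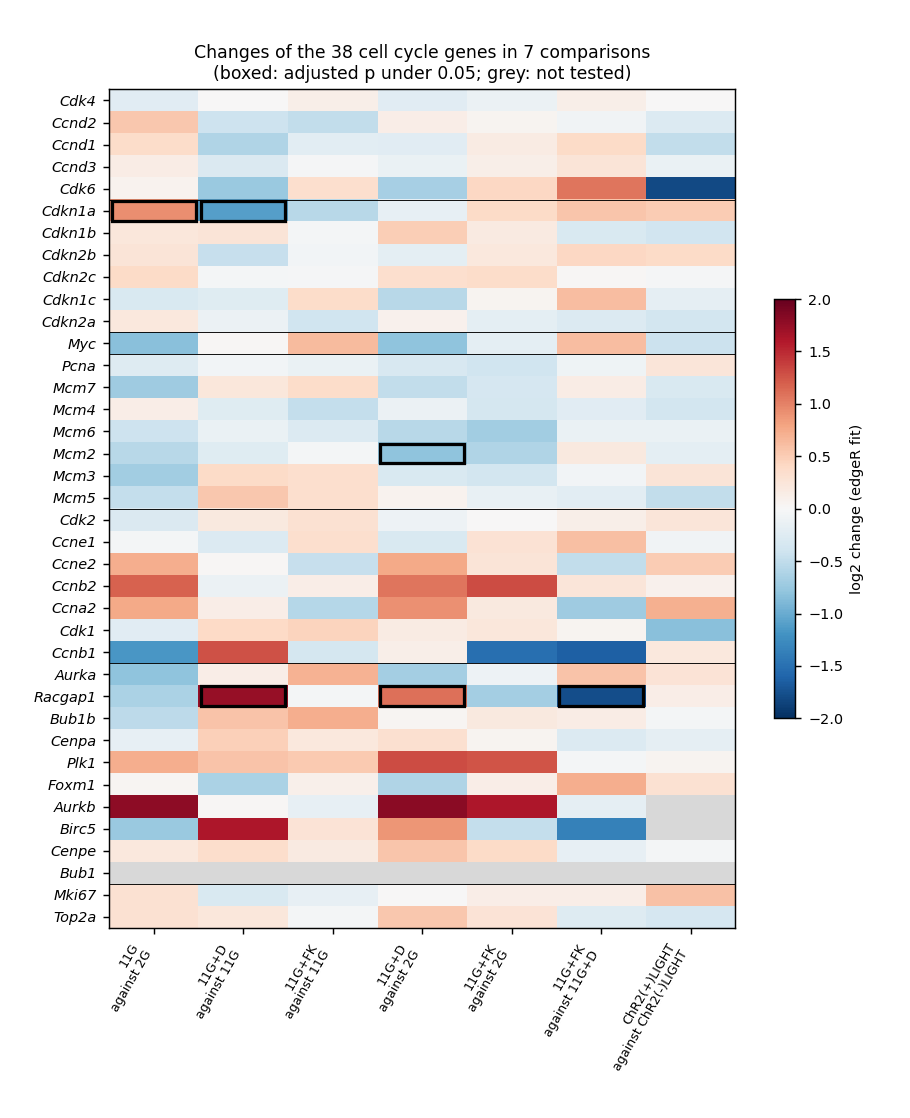
Log2 change of each of the 38 genes (rows, by role) in each of the 7 comparisons (columns), red for higher and blue for lower in the first-named group, with colours clipped at 2 in either direction. The 6 boxed cells passed the threshold: Cdkn1a in 2 comparisons, Racgap1 in 3 and Mcm2 in 1, and strong colours without a box belong mostly to genes with few counts such as Aurkb, Birc5 and Ccnb1.

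The proliferation markers showed no called difference. Mki67 had 7.03 and 6.67 CPM at 11G+D, 6.06 and 9.28 at 11G+FK, 7.31 and 9.93 at 11G, and 7.03 and 6.74 at 2G. Its change was 0.31 ± 0.26 at 11G against 2G and -0.31 ± 0.26 at 11G+D against 11G on the log2 scale (adjusted p = 0.513 and 0.581). Top2a had 4.30 and 4.25 CPM at 11G+D, 4.15 and 3.05 at 11G+FK, 4.27 and 3.13 at 11G, and 3.28 and 2.65 at 2G. Both 11G+D libraries of Top2a lay above both 2G libraries, while 11G and 11G+FK overlapped 2G, and the 11G+D against 2G change was 0.54 ± 0.29 on the log2 scale (adjusted p = 0.311).

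The 7 genes of the S phase and mitotic group (Ccna2, Ccnb1, Ccnb2, Ccne1, Ccne2, Cdk1 and Cdk2) likewise gave no call by edgeR in the 7 comparisons. DESeq2 called 0 among the 3 to 6 of them to which it gave an adjusted p. With edgeR 1 of the 7 had an unadjusted p under 0.05, in 11G+FK against 2G, beside 19.7% of all genes. Standard errors of the 7 ran up to 0.93, against 0.14 for Cdk4, and Ccnb1 had as few as 1 count in a library.

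Racgap1, a subunit of the centralspindlin complex in cytokinesis, was the exception among the 10 mitotic factors. It had 34.2 and 18.6 CPM at 11G+D, against 7.70 and 7.57 at 11G. The 11G+FK libraries had 8.30 and 6.69 CPM and the 2G libraries 13.6 and 10.5 CPM. Both 11G+D libraries were above every other wild-type library. Racgap1 rose at 11G+D against 11G by 1.74 ± 0.24 on the log2 scale, or 3.33-fold (adjusted p = 0.0053), and against 2G by 1.10 ± 0.23, or 2.14-fold (adjusted p = 0.0294). It was lower at 11G+FK than at 11G+D by a log2 change of -1.78 ± 0.24 (adjusted p = 0.0112). These 3 comparisons share the 11G+D libraries.

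The Racgap1 call against 11G was lost without 11G mouse 1 (1.47, adjusted p = 0.136), and the call against 2G without 2G mouse 1 (1.06, adjusted p = 0.0662), 2G mouse 2 (1.12, adjusted p = 0.09) or 11G+D mouse 1 (0.76, adjusted p = 0.101). The 11G+FK against 11G+D call was lost without 11G+FK mouse 1 (-1.71, adjusted p = 0.206) or mouse 2 (-1.84, adjusted p = 0.235), and without the block the 3 changes were 1.79, 1.13 and -1.81 (adjusted p = 0.0681, 0.16 and 0.167).

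Of the other 8 mitotic factors tested in wild type, edgeR called 0 in the 6 comparisons. DESeq2 called none of those to which it gave an adjusted p, which left out Aurkb and Birc5 in all 6 comparisons and Cenpe in 5. At 11G+FK against 11G only 5 of the 9 mitotic factors tested, Racgap1 among these 9, had a DESeq2 adjusted p. With edgeR at 11G+D against 11G 1 of the other 8 had an unadjusted p under 0.05, beside 18.7% of all genes. Birc5 had 1.05 and 1.48 CPM at 11G+D, against 0.589 and 0.209 at 11G, a log2 change of 1.62 ± 0.64 (adjusted p = 0.204). Plk1, the polo-like kinase of mitotic entry, had 2.94 and 2.48 CPM at 11G+D, against 0.821 and 1.44 at 2G, at 1.30 ± 0.42 (adjusted p = 0.102). Aurka, the centrosomal kinase, had 3.29 and 5.85 CPM at 11G, against 8.16 and 7.48 at 2G, at -0.81 ± 0.29 (adjusted p = 0.13). Summed over the 19 proliferation, S phase and mitotic genes, the libraries had 85.9 and 75.9 CPM at 11G+D, 62.7 and 68.9 at 11G+FK, 55.6 and 61.9 at 11G, and 62.6 and 66.6 at 2G. With Racgap1 left out, the sums were 51.7 and 57.3 CPM at 11G+D, 54.4 and 62.2 at 11G+FK, 47.9 and 54.3 at 11G, and 49.0 and 56.0 at 2G, and 11G+D no longer stood above the rest.

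**Figure D4:**
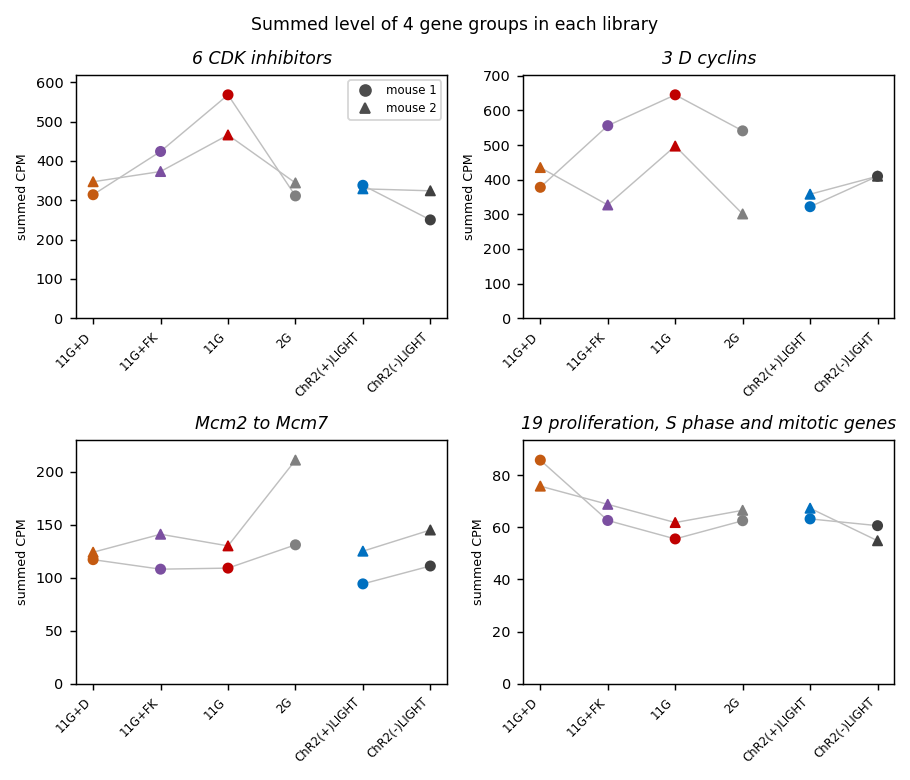
Summed CPM (linear axis from 0) of 4 groups of the genes in each library, with libraries of the same mouse number joined (circles mouse 1, triangles mouse 2). Among the wild-type groups, the CDK inhibitor sum is highest at 11G (568 and 466 CPM), the Mcm2 to Mcm7 sum in mouse 2 at 2G (211 CPM), and the sum of the 19 proliferation, S phase and mitotic genes at 11G+D (85.9 and 75.9 CPM, Racgap1 included).

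Among the replication genes, Mcm2 to Mcm7 of the helicase and the polymerase clamp Pcna, only Mcm2 passed. Mcm2 had 10.3 and 12.1 CPM at 11G+D, against 18.8 and 20.1 CPM at 2G, without overlap. It fell by 0.80 ± 0.19 on the log2 scale, or 1.74-fold lower (adjusted p = 0.0463), by 0.86 and 0.73 in mice 1 and 2. The 11G libraries, at 12.0 and 14.5 CPM, and the 11G+FK libraries, at 13.4 and 12.3 CPM, were also below both 2G libraries, with log2 changes of -0.56 ± 0.19 and -0.60 ± 0.19 that did not pass (adjusted p = 0.121 and 0.131). The Mcm2 call was lost when any of the 4 libraries was left out (-0.88 to -0.72 on the log2 scale, adjusted p = 0.0728 to 0.119) and without the block (-0.79, adjusted p = 0.154).

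At 11G against 2G, 6 of the 7 replication genes had a negative log2 change, with a median of -0.47 beside -0.01 for all genes. The median was -0.09 in mouse 1 and -0.71 in mouse 2. The Mcm2 to Mcm7 sum was 117 and 124 CPM at 11G+D, 109 and 130 CPM at 11G, and 131 and 211 CPM at 2G. The 2G library of mouse 2 stood apart, with 93.5 CPM of Mcm7 and 45.8 CPM of Mcm6, against at most 68.6 CPM of Mcm7 and 28.0 CPM of Mcm6 in the other wild-type libraries. That library was singled out for these values, so a fit with it alone for 2G, which takes the spread from the other groups, restates them: there Mcm3 (-1.04, adjusted p = 0.0373), Mcm6 (-0.71, adjusted p = 0.0412), Mcm7 (-0.96, adjusted p = 0.0391) and Myc (-1.16, adjusted p = 0.0292) passed at 11G against 2G. This is the library with the highest acinar and ductal marker shares (0.126% and 0.568%, against 0.0683% and 0.288% in the 2G library of mouse 1). Its endothelial and stellate marker shares were also the highest (0.231% and 0.0694%, against 0.127% and 0.0363% in the 2G library of mouse 1). Its α-cell marker share was lower, at 0.369% against 1.61%. The part of these marker shares in the result was not tested. Mcm7 overlaps Cops6 and Ap4m1 on the opposite strand.

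Myc had 85.1 and 104 CPM at 11G+D, 100 and 221 at 11G+FK, 67.0 and 137 at 11G, and 98.1 and 284 at 2G. In each wild-type group mouse 2 had more Myc than mouse 1, and within each mouse 11G was below 2G. The change at 11G against 2G was -0.83 ± 0.24 on the log2 scale (adjusted p = 0.0786), with -0.55 and -1.05 in mice 1 and 2. It did not pass with edgeR but did with DESeq2 (-0.84, adjusted p = 0.0123). The 11G+D against 2G change was -0.81 ± 0.24 (adjusted p = 0.084), and DESeq2 gave -0.81 (adjusted p = 0.0167).

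Of 31 further genes known as Myc targets or for ribosome biogenesis, 2 fell and 0 rose at 11G against 2G, or 6.45% beside 4.84% of all genes, and 26 of the 31 had a negative log2 change. Their median was -0.34 beside -0.01 for all genes, and it was -0.04 in mouse 1 and -0.55 in mouse 2. Tfrc, the transferrin receptor, had 65.8 and 64.9 CPM at 11G, against 198 and 140 CPM at 2G. Tfrc fell at 11G by 1.36 ± 0.17 on the log2 scale (adjusted p = 0.00359), and it also fell at 11G+D against 2G by 0.74 ± 0.17 (adjusted p = 0.0387) and at 11G+FK against 2G by 0.81 ± 0.17 (adjusted p = 0.0442). The other called genes of this list against 2G were Rrp9, of the U3 snoRNP, at 11G (-0.69 ± 0.17, adjusted p = 0.0479) and the ribosome assembly factor Wdr12 at 11G+D (-0.82 ± 0.16, adjusted p = 0.0261). In the Myc network itself, the partner Mxd4 rose at 11G+D against 2G by 0.67 ± 0.14 (adjusted p = 0.0298), and the glucose-responsive factor Mlxipl rose at 11G+D against 11G by 0.78 ± 0.18 (adjusted p = 0.0481), each the 1 gene called of 15 tested, or 6.67%, beside 5.22% and 3.79% of all genes.

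Further cell cycle genes were counted in lists that exclude the 38. Of 29 genes of G1/S control by the retinoblastoma, E2F and DREAM proteins, 5 rose and 0 fell at 11G+D against 2G, or 17.2% beside 5.22% of all genes. They were Fbxw7, which marks cyclin E and Myc for degradation (0.83 ± 0.16, adjusted p = 0.0254), Mybl2, the B-Myb factor (1.46 ± 0.30, adjusted p = 0.0265), Skp2, which targets p27 (1.60 ± 0.35, adjusted p = 0.0329), the INK4 inhibitor Cdkn2d (0.77 ± 0.19, adjusted p = 0.0454) and the activator E2f2 (1.65 ± 0.41, adjusted p = 0.047). Skp2 had 4.83 and 4.13 CPM at 11G+D, against 1.51 and 1.47 at 11G+FK, 1.81 and 1.72 at 11G, and 1.74 and 1.22 at 2G, so both 11G+D libraries were above all others. Cdkn2d had 27.5 and 30.6 CPM at 11G+D, 35.5 and 35.1 at 11G+FK, 31.5 and 24.9 at 11G, and 15.3 and 18.8 at 2G. At 11G+FK Fbxw7 had 72.6 and 62.2 CPM, against 71.0 and 78.3 at 11G+D, and Mybl2 4.43 and 4.70, against 4.62 and 6.20. These groups overlapped for both genes. E2f2 had 2.62 and 2.89 CPM at 11G+D, against 2.41 and 1.59 at 11G+FK. Mybl2, Skp2 and E2f2 had 18 to 105 counts per wild-type library. Fbxw7 and Cdkn2d act against progression and the other 3 for it. Against 11G, 25 of the 29 at 11G+D had a positive log2 change, with a median of 0.25 beside 0 for all genes. Of the 29, 7 had an unadjusted p under 0.05, beside 18.7% of all genes, and edgeR called 0 and DESeq2 1. At 11G against 2G the repressor E2f6 was the 1 gene called, lower by a log2 change of -0.81 ± 0.17 (adjusted p = 0.03), and at 11G+FK against 2G it was Cdkn2d, higher by 1.05 ± 0.19 (adjusted p = 0.0282).

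Of 55 further genes of S phase and DNA replication, Mcm10, which helps start replication forks, had 6.40 and 5.02 CPM at 11G+D, against 1.67 and 1.83 at 11G and 1.74 and 1.78 at 2G. Mcm10 was the 1 gene called at 11G+D against 11G, higher by 1.70 ± 0.32 (adjusted p = 0.0204). Against 2G 2 rose and 1 fell at 11G+D, or 5.45% beside 5.22% of all genes. They were Mcm10 (1.69 ± 0.32, adjusted p = 0.0214), the thymidine kinase Tk1 (1.21 ± 0.27, adjusted p = 0.0334) and Chaf1a, a subunit of chromatin assembly factor 1 (-1.44 ± 0.35, adjusted p = 0.0442). Chaf1a, with 1.81 and 1.25 CPM at 11G against 4.77 and 4.44 at 2G, was also the 1 called at 11G against 2G (-1.59 ± 0.35, adjusted p = 0.0332).

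Of 63 G2/M and mitosis genes tested, 1 rose and 1 fell at 11G+D against 11G, or 3.17% beside 3.79% of all genes. Hjurp, the chaperone of the centromeric histone CENP-A, had 154 and 118 CPM at 11G+D, against 83.3 and 70.9 CPM at 11G (0.81 ± 0.15, adjusted p = 0.0165). Spc25, a kinetochore subunit of the NDC80 complex, had 40.6 and 55.9 CPM at 11G+D, against 128 and 97.9 CPM at 11G (-1.20 ± 0.23, adjusted p = 0.0204). At 11G against 2G Hmgb2, a DNA-bending protein, was the 1 called, at -0.89 ± 0.19 (adjusted p = 0.0294).

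Of 35 other cyclins and CDKs, 1 rose and 1 fell at 11G against 2G and at 11G+D against 2G (5.71% each, beside 4.84% and 5.22% of all genes). The atypical cyclin Ccng2, linked to cell cycle arrest, moved opposite to Cdkn1a. Ccng2 had 38.6 and 35.7 CPM at 11G, against 85.4 and 63.4 at 2G, and fell by 0.99 ± 0.15 on the log2 scale (adjusted p = 0.00696). With diazoxide it had 61.5 and 56.2 CPM and rose against 11G by 0.66 ± 0.15 (adjusted p = 0.0375). It was lower at 11G+FK than at 2G (-0.71 ± 0.15, adjusted p = 0.0415). The other call at 11G against 2G was Ccnc, of the Mediator kinase module (0.73 ± 0.18, adjusted p = 0.0495). At 11G+D against 2G the elongation factor subunit Ccnt2 rose (0.76 ± 0.16, adjusted p = 0.0268). The CDK-activating kinase subunit Mnat1 fell in that comparison (-0.73 ± 0.17, adjusted p = 0.04). Ccnt2 had 142 and 128 CPM at 11G+D, 118 and 111 at 11G+FK, 134 and 109 at 11G, and 96.6 and 65.3 at 2G. Mnat1 had 15.6 and 18.0 CPM at 11G+D, 15.5 and 18.7 at 11G+FK, 17.2 and 17.8 at 11G, and 25.5 and 30.3 at 2G. For both genes the 11G+D and 11G libraries overlapped. At 11G+FK against 11G+D the call was the splicing-linked cyclin Ccnl2 (0.90 ± 0.17, adjusted p = 0.0404).

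Cdkn1a is a well-known target of p53, and 27 other p53 target genes were tested. At 11G against 2G 1 rose and 1 fell, or 7.41% beside 4.84% of all genes, and 20 of the 27 had a negative log2 change. Zmat3 had 97.5 and 71.9 CPM at 11G, against 49.3 and 36.6 at 2G (0.98 ± 0.18, adjusted p = 0.019). Gadd45a, a stress-induced growth arrest gene, had 22.3 and 33.4 CPM at 11G, against 69.6 and 107 at 2G (-1.66 ± 0.22, adjusted p = 0.0045). The kinase gene Plk3 was the 1 called at 11G+D against 11G (3.70% beside 3.79% of all genes), with 12.1 and 13.9 CPM at 11G+D, against 29.4 and 30.4 at 11G (-1.20 ± 0.16, adjusted p = 0.00467). At 11G+D against 2G 3 fell, or 11.1% beside 5.22% of all genes. They were Plk3 (-1.69 ± 0.16, adjusted p = 0.00214), the proapoptotic Bbc3 (-0.98 ± 0.16, adjusted p = 0.0142) and Gadd45a (-0.88 ± 0.22, adjusted p = 0.0464). At 11G+FK against 11G+D 2 were higher (7.41% beside 1.17% of all genes), Plk3 by 1.32 ± 0.16 (adjusted p = 0.00879) and Bbc3 by 0.88 ± 0.16 (adjusted p = 0.0364). These calls use the same 11G+D libraries as the falls with diazoxide. At 11G+FK against 11G edgeR called 0 of the 27. Plk3 had 30.8 and 34.1 CPM at 11G+FK, against 29.4 and 30.4 at 11G. Bbc3 had 42.5 and 67.9 CPM at 11G+FK, against 40.1 and 49.1 at 11G, with overlap.

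Intermittent light stimulation of β cells over 40 min left the 38 genes without a call. EdgeR called 0 of 35 tested, beside 0.844% of all 15171 genes, and DESeq2 called 0 of the 29 to which it gave an adjusted p. With edgeR 5 of the 35 had an unadjusted p under 0.05, beside 11.2% of all genes. The median log2 change of the 35 was -0.04 beside 0.01 for all genes. Cdkn1a had 225 and 209 CPM in ChR2(+)LIGHT islets, against 135 and 172 CPM in ChR2(-)LIGHT islets, without overlap. The log2 change was 0.51 ± 0.16 (adjusted p = 0.169), with 0.74 and 0.28 in mice 1 and 2. Myc had 37.9 and 60.2 CPM under light, against 67.3 and 61.6 without (-0.43 ± 0.19, adjusted p = 0.409). Ccnd1 had 21.1 and 55.0 CPM under light, against 39.0 and 60.2 without (-0.50 ± 0.20, adjusted p = 0.337), and Cdk6 0.717 and 0.350 CPM under light, against 2.99 and 0.989 without (-1.81 ± 0.60, adjusted p = 0.218). Cdkn1b had 14.2 and 15.5 FPKM under light, against 14.9 and 24.3 FPKM without (-0.39 ± 0.17, adjusted p = 0.381).

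The remaining G1 genes differed less between the light groups. Ccnd2 had 267 and 265 CPM under light, against 334 and 308 without, and Ccnd3 33.7 and 37.6, against 37.1 and 41.2 CPM. Cdk4 had 135 and 140 CPM under light, against 120 and 158 without. Racgap1, at 24.2 and 14.3 CPM under light against 21.8 and 13.1 without, was higher in mouse 1 under both conditions (0.14 ± 0.21, adjusted p = 0.896). Mcm2 had 17.4 and 25.6 CPM under light, against 17.8 and 32.3 without. Mki67 had 5.64 and 4.70 CPM under light, against 4.56 and 2.55 without (0.59 ± 0.35, adjusted p = 0.575), and Top2a 0.478 and 2.45, against 0.680 and 2.86 CPM.

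Among the inhibitors under light, Cdkn2b had 33.7 and 30.2 CPM, against 29.1 and 20.5 without light. Cdkn2c had 7.36 and 13.1 CPM under light, against 8.10 and 12.3 without, Cdkn1c 4.83 and 4.25, against 4.70 and 5.62, and Cdkn2a 2.58 and 3.05, against 2.79 and 4.63 CPM. Of the wider lists under light, beside 0.844% of all genes, edgeR called 0 of 49 S phase genes (4 with an unadjusted p under 0.05), 0 of 57 G2/M genes (1 such) and 0 of 29 G1/S control genes (1 such), and DESeq2 called 0 in each. Such an unadjusted p was found for 11.2% of all genes. The splicing-linked cyclin Ccnl1 rose, the 1 call of 34 other cyclins and CDKs (0.76 ± 0.15, adjusted p = 0.0244), and so did the glycolytic Myc target Ldha, the 1 of 31 Myc target and ribosome biogenesis genes (1.22 ± 0.18, adjusted p = 0.00189). The Myc antagonist Mnt fell, the 1 of 14 in the Myc network (-0.79 ± 0.16, adjusted p = 0.025). Of 27 p53 targets, the kinase gene Plk2 rose (0.98 ± 0.17, adjusted p = 0.00903) and Gadd45a fell (-0.84 ± 0.16, adjusted p = 0.0164). The number of genes called with light depended on the fit: with all 12 libraries in 1 fit it was 6, against 128.

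The promoters of the 3 genes that passed are shown because cell cycle genes share short promoter motifs. Windows run from 250 bases before to 50 bases after a RefSeq transcript start on GRCm38.p6 and were found for 29 of the 38 genes (34 windows). They are written 5′ to 3′ on the gene's strand, with capitals marking TTTGAA, the cell cycle genes homology region (CHR) bound by DREAM and B-Myb complexes. Racgap1 lies on the minus strand with its window at chr15:99651607-99651906, Mcm2 on the minus strand at chr6:88898731-88899030, and Cdkn1a on the plus strand, with windows at chr17:29090729-29091028 and chr17:29093519-29093818 for 2 transcript starts.
Racgap1: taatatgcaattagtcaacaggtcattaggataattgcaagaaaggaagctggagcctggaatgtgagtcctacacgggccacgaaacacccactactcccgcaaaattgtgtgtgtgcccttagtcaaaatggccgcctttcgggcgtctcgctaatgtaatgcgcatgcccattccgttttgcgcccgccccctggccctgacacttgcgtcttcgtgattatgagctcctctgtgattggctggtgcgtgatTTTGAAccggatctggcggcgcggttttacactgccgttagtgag
Mcm2: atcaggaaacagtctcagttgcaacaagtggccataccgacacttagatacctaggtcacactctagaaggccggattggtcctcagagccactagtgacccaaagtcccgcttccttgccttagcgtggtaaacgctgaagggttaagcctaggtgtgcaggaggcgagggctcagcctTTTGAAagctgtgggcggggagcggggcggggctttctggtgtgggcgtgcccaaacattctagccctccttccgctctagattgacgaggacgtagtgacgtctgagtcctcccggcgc
Cdkn1a, first start: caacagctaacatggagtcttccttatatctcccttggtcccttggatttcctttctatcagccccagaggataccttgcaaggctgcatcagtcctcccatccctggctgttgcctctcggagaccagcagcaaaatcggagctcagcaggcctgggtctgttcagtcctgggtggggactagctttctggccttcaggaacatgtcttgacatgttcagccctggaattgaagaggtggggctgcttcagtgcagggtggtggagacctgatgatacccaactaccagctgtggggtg
Cdkn1a, second start: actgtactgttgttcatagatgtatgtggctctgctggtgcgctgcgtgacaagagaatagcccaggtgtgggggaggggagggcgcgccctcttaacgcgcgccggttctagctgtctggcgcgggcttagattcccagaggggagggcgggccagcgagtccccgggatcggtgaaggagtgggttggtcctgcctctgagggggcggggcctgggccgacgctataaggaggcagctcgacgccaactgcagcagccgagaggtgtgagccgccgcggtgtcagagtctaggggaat

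Racgap1 held TTTGAA 6 bases after its start and Mcm2 70 bases before it (position -70), and neither Cdkn1a window held it on either strand. On either strand, TTTGAA was found in 11 of the 34 windows (32.4%), against 17.9% of all 32851 windows, among them those of Mki67, Top2a, Cdk1, Ccnb2, Plk1, Aurka, Bub1b, Cenpa and the inhibitor Cdkn2b. The E2F motif, searched as TTTCCCGC, TTTCGCGC, TTTGCCGC and TTTGGCGC, was found in 7 windows (20.6%), against 2.26% of all, those of Cdk1, Cdk2, Cdkn2a, Mcm3, Mcm5, Mcm6 and Mcm7. CCAAT, bound by NF-Y, was in 24 windows (70.6%), against 37.4% of all. The cAMP response element TGACGTCA and the E-box CACGTG, bound by Myc with Max, were each in 3 windows (8.82%), against 1.79% and 7.15% of all, and Cdk4 held 4 copies of CACGTG. No motif searched contains another, the windows of 1 gene can overlap, and a match is a run of letters, not a measured site.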

How the data were processed

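Total islet RNA of 12 libraries was compared. The authors deposited 8 tables, each of which sets 2 libraries of 1 mouse side by side and holds, per the file headers, FPKM values and raw read counts for every gene. The 11G counts of each mouse, which stand in 3 tables, differed at 0 genes between them. The sequencing was done by a commercial provider, per the labels' protocols. The genome build, the aligner, strand use and the counter were not given in the sources used here. All 38 genes were found in GENCODE M21 (GRCm38), and 35 had both ends within 1000 bases of it.

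The joined counts were tested in R 4.3.3 with edgeR 4.0.16 (quasi-likelihood test, two-sided, TMM, filterByExpr with a minimum count of 10 and total of 15, mouse number as a block). Wild type (8 libraries, 16087 genes) left 3 residual degrees of freedom and ChR2 (4 libraries, 15171 genes), fitted apart, left 1. In either fit the coefficient of biological variation came to 16.2%. CPM are counts scaled with TMM factors within each fit, so wild-type and ChR2 levels are not on 1 scale. Log2 changes per mouse used a prior count of 1. FPKM are the values deposited by the authors.

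The mouse numbers pair the samples because, per the labels, islets of a mouse number were held under every condition of its genotype. Between libraries of 1 number, deviations from group means correlated by 0.15 to 0.46 in wild type (6 pairs) and 0.50 in ChR2. The 38 genes and all lists were chosen with earlier results of these data known. Values in every library are given for genes past the threshold, the D cyclins, Cdk4, Cdk6, the CDK inhibitors, Myc, Mki67 and Top2a. From each related list, the 3 called genes with the smallest adjusted p of a comparison are named. Birc5, Plk1, Aurka, Mcm3, Mcm6, Mcm7, Cdkn2d and E2f2 were named in addition after their values were seen. As alternatives, each library was left out in turn, all 12 libraries were fitted together, the filter was dropped or raised to 10 CPM in 2 libraries, RLE size factors replaced TMM, the block was dropped, and DESeq2 1.42.0 replaced edgeR. Promoter windows come from RefSeq.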

Additional observations from a re-analysis of the deposited data

How the results depend on the processing

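Without the mouse number as a block, the number of the 38 genes past the threshold was 0 in all 7 comparisons, against 1 at 11G against 2G, 2 at 11G+D against 11G, 2 at 11G+D against 2G and 1 at 11G+FK against 11G+D with it. Over all genes the fit without the block called 68, 59, 1, 10, 5, 5 and 0 genes (11G against 2G, 11G+D against 11G, 11G+FK against 11G, 11G+D against 2G, 11G+FK against 2G, 11G+FK against 11G+D, and light), against 778, 610, 37, 840, 332, 188 and 128 with it. DESeq2 and the fit with no filter on low counts each called 3 of the 38 genes at 11G against 2G, the added ones being Mcm7 and Myc, and the fit with no filter called 1 at 11G+FK against 2G (Mcm6, -0.69). Over all genes DESeq2 called 1315 at 11G against 2G, 234 at 11G+FK against 11G, 769 at 11G+FK against 2G and 493 at 11G+FK against 11G+D, and the fit with no filter called 1672, 1085, 309, 1573, 992, 617 and 419 in the order above. The filter at 10 CPM gave 184 at 11G+FK against 2G, and the fit of all 12 libraries gave 58 at 11G+FK against 11G and 6 for light. Leaving out 1 library at a time gave 0 to 4 of the 38 genes at 11G against 2G, 0 to 4 at 11G+D against 11G, 0 to 3 at 11G+D against 2G, 0 to 1 at 11G+FK against 2G, 0 to 2 at 11G+FK against 11G+D, and 0 in each case for 11G+FK against 11G and for light. Over all genes it gave 42 to 1405, 45 to 765, 0 to 11, 246 to 1140, 4 to 162, 3 to 486 and 0 to 29 in the order above. The 6 called changes were recomputed 60 times in all. The call held in 39 of these and was lost in 21, 15 of them with 1 library left out and 6 without the block, and the direction held in all 60. The cause of these differences was not tested. With 11G+D against 11G, standard errors ran to 0.81 for Ccnb1, which had as few as 1 count in a library, against 0.14 for Cdk4.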

Other observations

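Among the 73 G2/M and mitosis genes outside the 38, the median level was 0.419 FPKM, and a few stood far above it. Spc25 had the second highest mean level of the list at 40.1 FPKM and Hjurp the fifth at 19.1 FPKM, beside 0.263 FPKM for Cdk1. Both also passed at 11G+D against 11G, in opposite directions. Spc25 (chromosome 2, 69193895 to 69206194, minus strand) lies 4878 bases from G6pc2, the islet glucose-6-phosphatase subunit (69211073 to 69227841, plus strand), by the coordinates in the deposited tables. G6pc2 had 223 and 332 CPM at 11G+D, 364 and 210 at 11G+FK, 1800 and 1060 at 11G, and 358 and 205 at 2G. Spc25 had 40.6 and 55.9 CPM at 11G+D, 62.7 and 42.5 at 11G+FK, 128 and 97.9 at 11G, and 75.0 and 54.6 at 2G, so that in both genes both 11G libraries were the highest of the wild-type libraries. At 11G against 2G the log2 change was 2.35 ± 0.32 for G6pc2 (edgeR adjusted p = 0.00474) and 0.81 ± 0.22 for Spc25 (adjusted p = 0.067), and at 11G+D against 11G it was -2.26 ± 0.32 (adjusted p = 0.00578) and -1.20 ± 0.23 (adjusted p = 0.0204). Whether reads from G6pc2 transcripts were counted for Spc25 was not tested. This pair was chosen after its values were seen.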
